A study of Rattus norvegicus with 6 samples.

Results

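The 6 arrays of this study of rat spinal cord, all of which enter the comparison, were split by whether the animals had received T cells. The 3 arrays with T cells were set against the 3 arrays without them, target by target. All animals were adult Lewis rats, and the tissue was fixed in formaldehyde and embedded in paraffin. On day 0 the T cell animals received activated T cells specific for myelin basic protein (MBP), a protein of the myelin sheath, and on day 4 they received NMO-IgG (the ENMO array), human control IgG (EAEcoI) or PBS (EAEcoP). The animals without T cells received NMO-IgG only, human control IgG only, or nothing (healthy). NMO-IgG is human antibody against the astrocyte water channel aquaporin 4. Treated animals were killed 24 h after the antibody or PBS. Each array held RNA from a pool of 5 rats, or 3 rats for the healthy group, with 25 sections per treated animal, and the RNA was amplified once before hybridisation. A pool hides the spread between animals, and the 3 arrays of a group are not repeats of 1 condition, since they differ in antibody. The p-values below therefore measure the spread between these arrays. In whole tissue, fewer cells of a type and less RNA per cell cannot be told apart.

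T cells that recognise MBP cross the blood-brain barrier, meet their antigen on myeloid cells and release cytokines, among them interferon-gamma, and recruit monocytes into the cord. Interferons act through STAT and IRF transcription factors. Their targets include guanylate-binding GTPases, the immunoproteasome and the MHC class I molecules that present its peptides. Astrocytes, which couple to each other through gap junctions and take up transmitters and ions, respond to the same cytokines. This is the model known as experimental autoimmune encephalomyelitis (EAE).

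Of 36410 targets on the array, 24960 exceeded background clearly (the scanner software's mark) on 1 or more arrays and were tested, and 12728 of these carried a gene symbol. Values are normalized signal intensities (NSI), the background-corrected intensity after quantile normalization, and are relative units for 1 probe that cannot be compared between genes. Differences are given as the difference of mean log2 NSI, T cell arrays minus arrays without T cells, with the standard error of limma. The EAEcoP array stood apart: its correlation with the other arrays over log2 NSI was 0.64 to 0.77, against 0.82 to 0.91 among the other 5. The T cell arrays did not group together by this measure. ENMO correlated at 0.863 to 0.908 with the arrays without T cells, and at 0.862 with EAEcoI and 0.768 with EAEcoP. EAEcoI correlated at 0.824 to 0.851 with the arrays without T cells and at 0.752 with EAEcoP. Between 44.4% and 60.2% of spots were well above background with T cells and 35.4% to 41.7% without them. Slide 1 held ENMO, EAEcoP and the control IgG array without T cells, and slide 2 held the remaining 3. Of the markers of the tissue, the myelin gene Mbp was well above background on all 6 arrays, while Aqp4, which encodes the target of NMO-IgG, and S100b were well above background on 1 array each and Gfap on 4.

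The start regions of 5 genes are shown so that the letters upstream of an interferon-induced gene can be set beside those upstream of an astrocyte gene. The sequences are the 250 bases before the gene start in RefSeq (GRCr8), 5′ to 3′ on the strand of the gene. Capitals mark matches, on either strand, to the core of the interferon-stimulated response element (ISRE: GAAA, any 2 letters, GAAA), to the gamma-activated site (GAS: TTC, any 3 letters, GAA) or to a kappa-B core (GGG, any 5 letters, CC). The first 3 were chosen among genes above on every T cell array because they hold the ISRE core, and the last 2 are genes below on every T cell array.
Gbp2, chr2:234005477-234005726, plus strand: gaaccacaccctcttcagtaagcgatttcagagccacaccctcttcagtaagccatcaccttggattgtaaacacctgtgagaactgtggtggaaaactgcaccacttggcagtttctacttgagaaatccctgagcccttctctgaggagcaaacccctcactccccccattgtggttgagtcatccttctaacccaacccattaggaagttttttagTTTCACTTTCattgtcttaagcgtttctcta
Ccl19, chr5:61761165-61761414, minus strand: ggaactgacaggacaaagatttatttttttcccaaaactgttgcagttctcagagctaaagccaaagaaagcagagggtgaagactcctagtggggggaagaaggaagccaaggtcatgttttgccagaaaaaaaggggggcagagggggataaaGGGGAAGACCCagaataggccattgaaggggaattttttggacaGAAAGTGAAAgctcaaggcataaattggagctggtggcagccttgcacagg
Oas1a, chr12:41330216-41330465, plus strand: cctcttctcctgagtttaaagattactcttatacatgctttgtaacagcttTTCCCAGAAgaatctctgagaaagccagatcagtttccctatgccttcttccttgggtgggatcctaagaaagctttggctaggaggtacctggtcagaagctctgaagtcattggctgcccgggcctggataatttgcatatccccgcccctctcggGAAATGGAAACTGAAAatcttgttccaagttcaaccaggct
Gjb6, chr15:35410139-35410388, minus strand: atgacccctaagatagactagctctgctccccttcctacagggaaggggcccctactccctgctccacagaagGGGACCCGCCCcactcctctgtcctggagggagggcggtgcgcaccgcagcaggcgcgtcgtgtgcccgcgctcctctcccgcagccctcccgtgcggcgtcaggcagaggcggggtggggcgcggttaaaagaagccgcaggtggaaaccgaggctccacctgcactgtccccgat
Ndrg2, chr15:27083121-27083370, minus strand: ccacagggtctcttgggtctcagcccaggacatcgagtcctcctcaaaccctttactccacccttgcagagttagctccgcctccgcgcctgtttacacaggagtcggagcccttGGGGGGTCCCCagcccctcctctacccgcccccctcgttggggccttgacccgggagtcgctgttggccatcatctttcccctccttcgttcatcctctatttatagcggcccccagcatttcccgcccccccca
The ISRE core began 31 bases before the gene start in Gbp2 and 51 bases before it in Ccl19, and in Oas1a a pair of overlapping matches stood side by side. In windows of this length the ISRE core was present in 3.41% of all 33469 promoters, the GAS in 7.67% and the kappa-B core in 42.3%. The last of these is thus common, and its capitals in Gjb6 and Ndrg2 mark letters that many promoters hold. Of the 10 leading genes above, 9 were in the promoter table and 2 held the ISRE core (Gbp2 and Ccl19), and of the 10 below 0 held it. A match is a description of the letters and not a binding site.

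With all 6 arrays, limma called 0 of 24960 targets at an adjusted p under 0.05 (0% of those tested), and 2826 targets had an unadjusted p under 0.05 (11.3%). In a count without a test, 2706 targets were above on every T cell array relative to every array without T cells (10.8% of those tested) and 1745 were below (6.99%). The direction depended on detection. Of the 2706 targets above, 1397 were not well above background on any array without T cells, so that for these the lower group holds a bound and no level, and such a target could enter the test only through a T cell array. Among the 11103 targets well above background on all 6 arrays the split turned, with 898 above (8.09%) and 1153 below (10.4%), and the median difference was -0.29 against -0.02 over all targets tested.

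**Figure D1:**
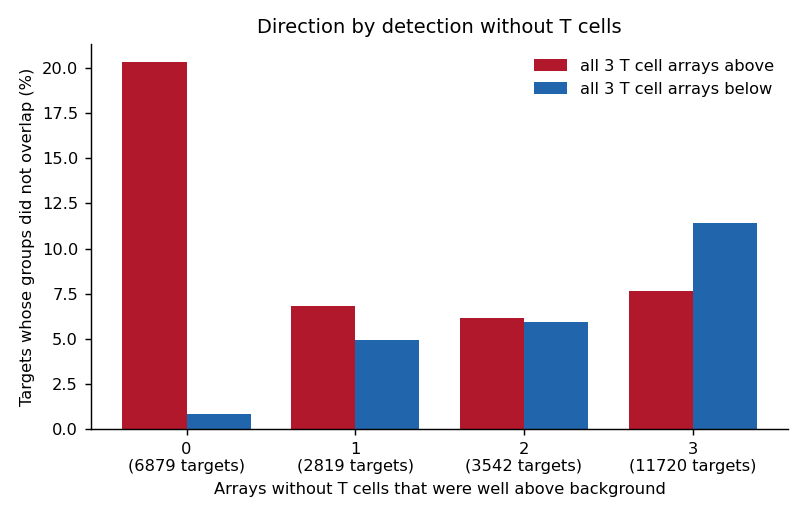
Share of tested targets (%, vertical axis) whose 3 T cell arrays all lay above (red) or all below (blue) the 3 arrays without T cells, by the number of arrays without T cells on which the target was well above background (horizontal axis, with the number of targets). Targets dim on every array without T cells were above in 20.3% and below in 0.843%, while targets detected on all 3 were above in 7.66% and below in 11.4%.

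Among genes with a symbol whose groups did not overlap and that were detected on every array of the higher group, the largest difference belonged to Gbp2, a GTPase induced by interferon-gamma. Its NSI was 4470 in ENMO, 963 in EAEcoI and 2254 in EAEcoP. Without T cells it was 40.6 with NMO-IgG, 19.7 with control IgG and 53.4 in the healthy pool, and the same order of arrays is used below. The lowest T cell value, 963, lay above the highest of the others, 53.4, which the rule of choice requires. The difference was 5.93 ± 0.69 (SE, 3 against 3 arrays), or 61.1-fold, with a limma adjusted p of 0.163 that missed the threshold. Within slide 1 the difference was 7.34 and within slide 2 it was 4.37. The sign within a slide is fixed where the groups do not overlap, here and for the genes that follow. Of the other 3 interferon-induced GTPases tested, none was above on every T cell array: Ifi47 differed by -0.70, Irgm by -1.42 and Gbp4 by -1.63, with overlapping groups in each.

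Psmb9, a catalytic subunit of the immunoproteasome, was also above on every T cell array. With T cells it stood at 1615, 595 and 401, and without them at 38.4, 39.9 and 51.6, and it was well above background on all 6 arrays. The groups did not overlap, and the difference was 4.08 ± 0.62 (limma adjusted p = 0.163), or 17.0-fold. Within slide 1 it was 4.33 and within slide 2 it was 3.74. Psmb10, another catalytic subunit, was high on only 2 of the T cell arrays, with 1045 in ENMO, 32.3 in EAEcoI and 2072 in EAEcoP against 54.5, 128 and 31.9. The third, Psmb8, was dim, at 8.92 to 17.9 with T cells and 8.33 to 9.49 without. Of 6 immunoproteasome genes tested, 1 was above (16.7%, beside 10.8% of all targets), 1 was below (16.7%, beside 6.99%) and 4 overlapped. The median difference of the list was 0.99. Pomp, the assembly chaperone, was the member below, at 24.0, 7.17 and 25.9 against 28.3, 29.4 and 59.5. Of 12 constitutive proteasome genes, 4 were above (33.3%, beside 10.8% of all targets) and 0 below (beside 6.99%). Their median was 0.25, which turned to -0.48 among the members detected on all 6 arrays, beside -0.29 for all targets so detected.

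Of the 23 genes tested of MHC class I and of peptide loading onto it, 9 were above on every T cell array (39.1%, beside 10.8% of all targets), 0 were below and 14 overlapped, and the median difference was 0.79 beside -0.02. All 9 are shown in the plot of list members, and 8 are class I heavy chain genes. These are close copies of each other, so that the probes may share targets and the genes are not independent. RT1-CE12 stood at 171, 303 and 860 with T cells and at 16.7, 66.7 and 17.8 without. The lowest T cell value was above the highest value of the other group, and the difference was 3.71 ± 0.77 (limma adjusted p = 0.182). RT1-CE5 stood at 685, 1291 and 1776 against 353, 506 and 349, a difference of 1.55 ± 0.55. RT1-A2 stood at 306, 241 and 304 against 165, 164 and 167. This was a 1.71-fold step with little spread on either side. Between spots of a pair of arrays the spread was 1.70-fold, or 1.43-fold for spots well above background. Tapbp, the tapasin that loads peptide onto class I, stood at 89.0, 128 and 208 against 67.8, 52.9 and 77.9. The class I light chain B2m overlapped between the groups, at 3817, 476 and 1575 against 518, 280 and 481, since EAEcoI lay below NMO-IgG only and healthy. Among the 14 members detected on all 6 arrays 4 were above and 0 below, beside 8.09% and 10.4% of all targets so detected. The median of the list was 0.86 between the NMO-IgG arrays, 0.85 between the control IgG arrays and 1.42 between EAEcoP and healthy, and it kept its sign in 21 of 21 alternative settings.

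**Figure D2:**
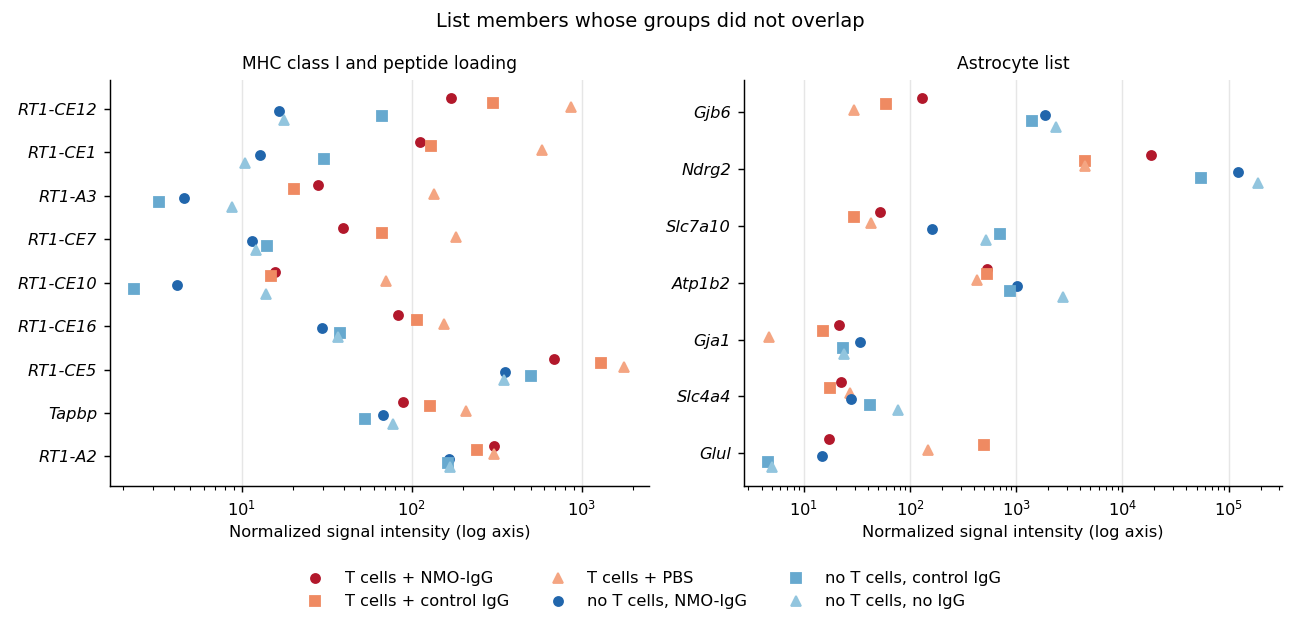
NSI (log axis) on each of the 6 arrays for the 9 MHC class I and peptide loading genes and the 7 astrocyte genes whose groups did not overlap, each point being 1 array. The red points (T cells) lie right of the blue points (no T cells) for all 9 genes at the left, and for Glul at the right, while they lie left of the blue points for the other 6 astrocyte genes.

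Of 12 class II genes, which present antigen to helper T cells, 1 was above, 1 was below and 10 overlapped. This was 8.33% each way, beside 10.8% above and 6.99% below of all targets. RT1-Da, a class II alpha chain, was high in 2 of the 3 T cell arrays, with 77.3 in ENMO, 6.24 in EAEcoI and 60.8 in EAEcoP against 4.15, 10.2 and 3.92. Cd74, the invariant chain, stood at 67.01, 28.3 and 53.9 against 30.6, 15.2 and 8.15, and the groups overlapped through EAEcoI and NMO-IgG only.

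Antiviral interferon-induced genes gave a mixed picture. Of 27 tested, 6 were above (22.2%, beside 10.8% of all targets), 1 was below (3.70%, beside 6.99%) and 20 overlapped, with a median of 0.25. Oas1a, which makes the signal that activates RNase L, stood at 881, 342 and 355 with T cells and at 163, 113 and 170 without. All 3 T cell arrays were above, and the difference was 1.70 ± 0.57. Lgals3bp, a secreted glycoprotein, stood at 279, 50.5 and 406 against 32.4, 37.1 and 47.3, where EAEcoI was just above healthy. Zbp1, a sensor of nucleic acid, stood at 126, 49.5 and 233 against 43.9, 26.6 and 18.2. The remaining members above were Ifitm2, Isg15 and Oasl2, with differences of 1.19, 0.92 and 0.82, and the member below was Samhd1 at -1.16. Of 16 genes of interferon signalling, 5 were above (31.25%, beside 10.8% of all targets) and 0 below (beside 6.99%). Among them, Irf7 had 9.75, 9.58 and 17.8 against 4.84, 4.23 and 2.59, and was not well above background without T cells, so that it was at least 2.19-fold higher. Ifng, the cytokine itself, was faint on every array, at 16.5 to 20.8 with T cells and 10.5 to 13.8 without.

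Of the genes above on every T cell array in these interferon lists and the GTPase and immunoproteasome lists, 10 of 13 had a promoter in the table, and 6 of the 10 held the ISRE core (Gbp2, Oas1a, Oasl2, Ifitm2, Lgals3bp and Irf7). The lists were written from known interferon-induced genes, so this count describes the members and supports nothing about these arrays. Of the 9 class I members above, 8 had a promoter in the table and 1 held the ISRE core, Tapbp. Of the 6 astrocyte genes below, all 6 were in the table and 0 held it.

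Ccl19, the ligand of the lymphocyte and dendritic cell receptor CCR7, was the leading chemokine. It stood at 39.7, 171 and 196 with T cells and at 2.59, 3.20 and 3.33 without, and was not well above background on any array without T cells. It was thus at least 20.3-fold higher with T cells (limma adjusted p = 0.163). Of 33 chemokines and receptors, 4 were above (12.1%, beside 10.8% of all targets) and 2 were below (6.06%, beside 6.99%), which is near the background. Cx3cl1, the membrane-bound chemokine of neurons that binds microglia, stood at 826, 777 and 652 against 2882, 2313 and 4621. The difference was -2.07 ± 0.51. Cxcr6 also lay below, at 28.2, 13.6 and 9.02 against 90.6, 37.7 and 86.9. Cxcr3, a receptor of Th1 cells, was above at 13.2, 18.6 and 17.8 against 7.46, 2.34 and 5.45, values close to background. Ccl2 and Cxcl10, which recruit monocytes and T cells, were well above background on 1 array each.

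Of 30 cytokines and cytokine receptors, 2 were above (6.67%, beside 10.8% of all targets) and 0 below (beside 6.99%). Il17a, the cytokine of Th17 cells, was 146 in ENMO, 27.9 in EAEcoI and 26.5 in EAEcoP against 11.6, 14.2 and 17.5, with ENMO far above the other T cell arrays. Il2rg, the shared receptor chain of several interleukins, stood at 552, 495 and 723 against 398, 473 and 386, where EAEcoI was just above control IgG only.

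Genes of T cells, the type that was injected, were examined next. Of 17 T cell genes, 5 were above (29.4%, beside 10.8% of all targets), 0 were below and 12 overlapped, with a median of 0.55, and their summed NSI, of which Cd3d was a large part, was 2474 to 4130 with T cells and 1630 to 1931 without. Nkg7, a cytotoxic granule protein, stood at 45.8, 129 and 501 against 23.6, 18.0 and 23.9, a difference of 2.73 ± 0.80 (limma adjusted p = 0.275). Coro1a, an actin regulator of leukocytes, stood at 62.0, 22.4 and 112 against 4.47, 21.3 and 14.4, where EAEcoI was just above control IgG only. Zap70, the kinase of the T cell receptor, stood at 101, 99.6 and 240 against 61.8, 83.7 and 53.3. Cd3d, a defining chain of the receptor, overlapped, at 2348, 924 and 872 against 918, 628 and 594, since EAEcoP lay below NMO-IgG only. Cd3e and Cd2 were not well above background on any array, and Cd4 differed by -0.26 with overlap. Between EAEcoP and healthy the median of the list was -0.11, the other sign from the 0.84 between the NMO-IgG arrays and the 0.42 between the control IgG arrays.

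Myeloid genes were above in 9 of 30 tested (beside 10.8% of all targets), with 1 below (3.33%, beside 6.99%) and 20 overlapping, and the median was 0.34. The summed NSI of the list, in which bright probes weigh most, was 9776 to 25686 with T cells and 7857 to 9150 without. Lyz2, the lysozyme of macrophages, stood at 126, 93.6 and 657 with T cells and at 4.84, 4.98 and 9.74 without. It was not well above background on any array without T cells, and was at least 29.5-fold higher with T cells (limma adjusted p = 0.163). Fcgr1a, the high-affinity IgG receptor, stood at 2321, 140 and 575 against 73.6, 84.1 and 90.0, with ENMO far above the rest. Laptm5, a lysosomal protein of leukocytes, stood at 1088, 1739 and 1510 against 522, 557 and 1041, where ENMO was just above healthy. Itgam, Aif1, Cd163, Ctsz and Cd14 were above with differences of 0.51 to 1.35. Gpnmb, a glycoprotein of lipid-laden macrophages, was 3.19 in ENMO but 188 in EAEcoI and 703 in EAEcoP, against 1.76 to 3.0 without T cells, and it was well above background only in EAEcoI and EAEcoP. Ncf1, a subunit of the phagocyte oxidase, went the other way, at 54.9, 50.2 and 26.3 against 208, 271 and 163. Among the 19 members detected on all 6 arrays 4 were above and 1 below, beside 8.09% and 10.4% of all targets so detected. The median of these members was -0.26, near the -0.29 of all targets so detected.

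Neutrophil genes were above in 3 of 15 (beside 10.8% of all targets) and below in 1 (6.67%, beside 6.99%), with a median of -0.00. Lcn2, a siderophore-binding protein, stood at 73.3, 55.2 and 308 against 13.3, 18.0 and 12.7 and was at least 7.44-fold higher. The subunits of calprotectin parted, with S100a9 at 15.0, 17.8 and 39.2 against 11.5, 3.97 and 6.43 and S100a8 at 14.6, 5.96 and 4.27 against 73.7, 28.8 and 15.3. Of 18 complement genes 1 was above, Cfb of the alternative pathway, at 11.5, 6.93 and 75.4 against 2.91, 1.79 and 1.74, and 1 was below, C2 of the classical pathway, at 68.5, 108 and 45.5 against 169, 135 and 150. For the complement list this was 5.56% each way, beside 10.8% above and 6.99% below of all targets. Of 4 B cell genes 0 were above (beside 10.8% of all targets) and 1 was below (25%, beside 6.99%), too few genes for a share.

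**Figure D3:**
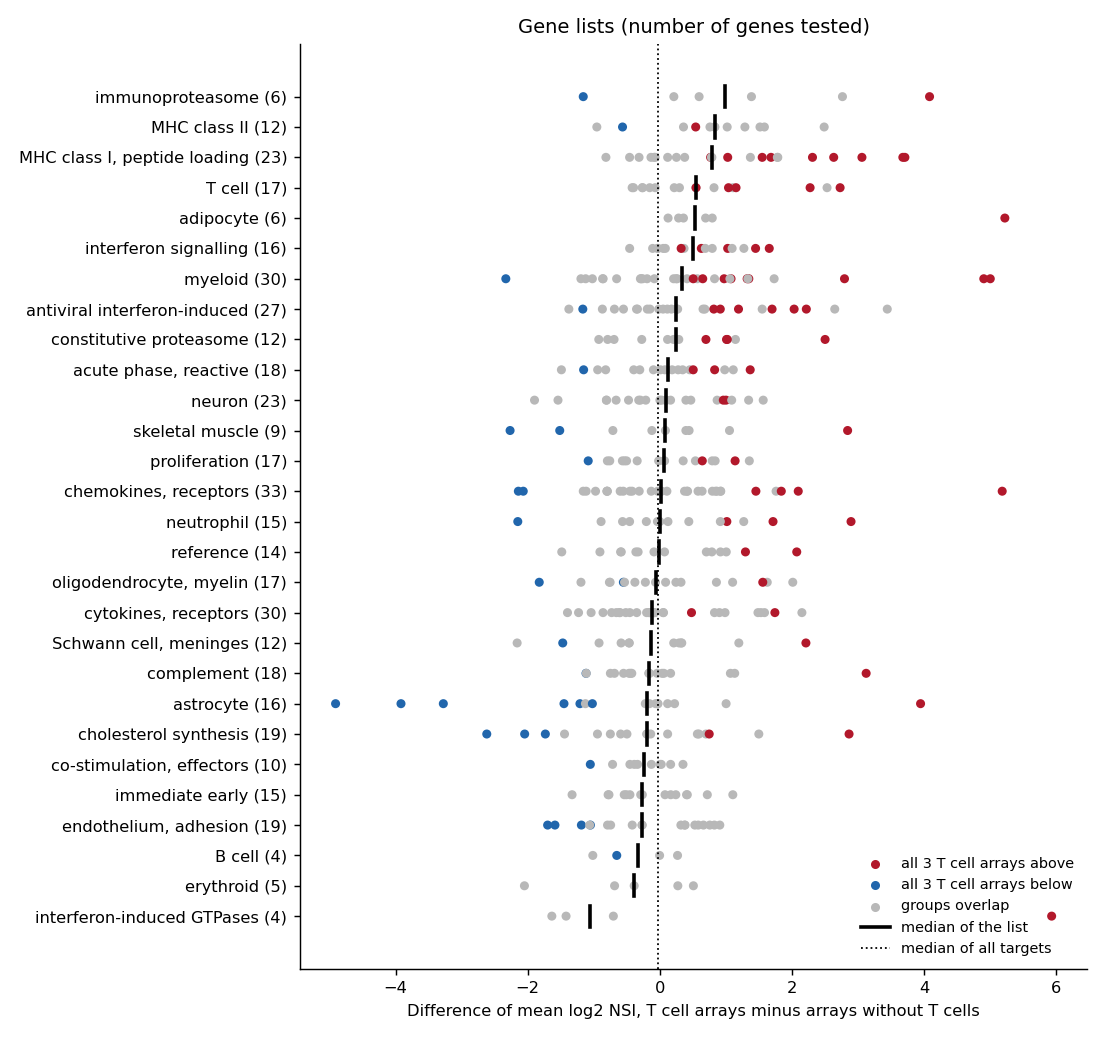
Difference of mean log2 NSI (horizontal axis) for each gene of the 28 lists, 1 point per gene, red where all 3 T cell arrays lay above, blue where all 3 lay below and grey where the groups overlapped, with the list median as a black bar and the median of all targets as a dotted line. MHC class I held 9 red and 0 blue points, and the astrocyte list held 6 blue points and 1 red.

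The largest differences downward included astrocyte genes. Of 16 astrocyte genes tested, 6 were below on every T cell array (37.5%, beside 6.99% of all targets), 1 was above and 9 overlapped, and the median was -0.19. Gjb6, which encodes the astrocyte gap junction protein connexin 30, stood at 129, 60.0 and 29.9 with T cells and at 1868, 1410 and 2362 without. All 6 values were well above background and the groups were an order of magnitude apart. The difference was -4.91 ± 0.63 (limma adjusted p = 0.163), or 30.01-fold lower with T cells, at -4.51 within slide 1 and -5.13 within slide 2. Ndrg2, a cytoplasmic protein enriched in astrocytes, stood at 18672, 4471 and 4411 against 123040, 54665 and 188852. Its highest T cell value lay under the lowest of the other group, and the difference was -3.92 ± 0.73 (limma adjusted p = 0.182), or 15.1-fold. Slc7a10, an astrocyte carrier of serine and glycine, stood at 52.3, 29.4 and 42.6 against 163, 708 and 518. The T cell values were close to each other and the others were not, with a difference of -3.28 ± 0.65.

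Gja1, the other astrocyte connexin, stood at 21.6, 15.0 and 4.69 against 33.6, 23.4 and 23.9. Atp1b2, a subunit of the sodium pump, stood at 530, 530 and 429 against 1010, 881 and 2766. Slc4a4, the bicarbonate carrier, stood at 22.5, 17.7 and 27.1 against 28.1, 41.8 and 77.0. The groups nearly overlapped for Slc4a4 and Gja1. The groups overlapped for other astrocyte genes: Aldoc, Fgfr3 and Sox9, each detected on all 6 arrays, had differences of -0.22, 0.12 and -0.16, and Aqp4, Kcnj10 and S100b were near background. The astrocyte gene above was Glul, glutamine synthetase, at 17.4, 499 and 147 against 14.8, 4.62 and 5.06, so that ENMO and NMO-IgG only were close. Its probe was well above background only in EAEcoI and EAEcoP. Among the 9 members detected on all 6 arrays 5 were below and 0 above, beside 10.4% and 8.09% of all targets so detected. The summed NSI of the list, most of which was Ndrg2, was 6057 to 19884 with T cells and 58224 to 195085 without, and the median of the list was below 0 in 21 of 21 alternative settings.

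Of 17 oligodendrocyte and myelin genes 1 was above (5.88%, beside 10.8% of all targets), 2 were below (11.8%, beside 6.99%) and 14 overlapped. The median of the list was -0.06. Mog, a myelin surface protein, stood at 368, 201 and 136 against 409, 693 and 1574, while Mbp overlapped at 456, 582.2 and 2042 against 178, 612 and 169. Of 23 neuron genes 2 were above (8.70%, beside 10.8%) and 0 below (beside 6.99%), with a median of 0.09. Endothelial and adhesion genes were below in 4 of 19 (21.1%, beside 6.99% of all targets) and above in 0 (beside 10.8%). The 4 were among the 14 members detected on all 6 arrays, and of all targets so detected 10.4% were below. Pecam1, the endothelial adhesion molecule, stood at 32.6, 27.0 and 30.1 against 72.2, 84.3 and 118, a difference of -1.59 ± 0.50, and Itgb1, Tek and Tjp1 had differences of -1.70, -1.19 and -1.05. In 18 acute phase and reactive glia genes, 3 were above (16.7%, beside 10.8%) and 1 was below (5.56%, beside 6.99%). Vim, among those above, stood at 57.6, 176 and 92.5 against 31.7, 39.2 and 43.9. Gfap overlapped, with a difference of 0.19.

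Of 19 genes of cholesterol synthesis 2 were above (10.5%) and 3 below (15.8%). Over all targets 10.8% were above and 6.99% below, which is the comparison for each list of this paragraph. Hmgcs1, which makes HMG-CoA, stood at 2754, 525 and 577 against 7988, 5510 and 4395, Mvd at 133, 114 and 95.5 against 186, 707 and 773, and Msmo1 at 377, 127 and 551 against 589, 1845 and 893. Pmvk and Nsdhl of the same pathway were above, with differences of 2.87 and 0.75. Of 15 immediate early genes 0 were above and 0 below. Of 17 proliferation genes 2 were above and 1 below. Of 14 reference genes (housekeeping genes), 2 were above and 0 below: Gapdh at 218, 232 and 658 against 155, 83.4 and 174, and Ppia at 15.8, 13.9 and 55.8 against 4.11, 11.5 and 3.46. Both were highest in EAEcoP. Of 9 skeletal muscle genes 1 was above and 2 below, of 6 adipocyte genes 1 and 0, of 5 erythroid genes 0 and 0, of 12 Schwann cell and meningeal genes 1 and 1, and of 10 co-stimulation genes 0 and 1.

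The remaining genes among the 10 leading ones in each direction are described next. The first 30 of the 60 bases of the probes are given for the members discussed here, since each value rests on 1 probe.
Gbp2: tatggcagtgtgtcttgaactttctcagga
Rbm38: tcgtgaccatggcagatcgggcagcagctg
Retn: gggcaggaaacgagatgagggtctggaaat
Ccl19: tgtgcctagagagtcggtgtgaacgtgagt
Lyz2: attcgagcatgggtggcatggcaaagacac
Gjb6: aagtgagaccctctctaaaattagcctttc
Igf2: ttctggcaaaatccaaagcttgggttttgt
Ndrg2: catactcttgtgtgtagggtgtgacctcct
Rbm38, an RNA-binding protein induced by p53, stood at 90.1, 4184 and 897 with T cells and at 15.0, 11.3 and 11.8 without, and was at least 55.3-fold higher with T cells. Retn, which encodes resistin, stood at 83.4, 651 and 448 against 5.43, 15.6 and 5.52, at least 37.4-fold higher. Resistin is made by fat cells in rodents, and of the other adipocyte genes Fabp4, Plin1, Lep, Cidec and Pnpla2 overlapped between the groups with differences of 0.13 to 0.79, while Adipoq was not well above background on any array. The summed NSI of the adipocyte list, which includes Retn itself, was 337 to 813 with T cells and 101 to 221 without. Retn made up 651 of the 813 in EAEcoI and 448 of the 637 in EAEcoP, so the sum does not describe the other adipocyte genes. The part of fat tissue in the value of Retn was not tested. Hdc, which makes histamine, stood at 34.6, 4112 and 365 against 4.10, 24.9 and 27.5, so that ENMO lay near healthy. Clec2d, a C-type lectin and ligand of an NK cell receptor, stood at 147, 1254 and 1107 against 21.7, 29.97 and 10.4. Ipo5, a nuclear import receptor, stood at 80.2, 94.0 and 706 against 6.48, 7.01 and 12.3. It was not well above background on any array without T cells, and was at least 21.2-fold higher with them. Its difference of 4.41 depended on the processing, and ran from 0.13 to 5.84 over 19 alternative settings. The olfactory receptor genes Or12e9 and Or5l14b had differences of 4.52 and 4.28.

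Igf2, an insulin-like growth factor made by the meninges and choroid plexus, stood at 31.2, 2.94 and 11.9 with T cells and at 153, 230 and 214 without, a difference of -4.25 ± 0.80 (limma adjusted p = 0.182). Slc13a3, a carrier of dicarboxylates, stood at 35.5, 26.4 and 25.1 against 194, 315 and 505. Its T cell values were nearly the same, and the difference was -3.45 ± 0.55. Kif1c, a motor protein, stood at 17403, 3930 and 2851 against 54654, 27846 and 122998. Asic1, an acid-sensing channel, stood at 5.91, 399 and 94.0 against 1094, 958 and 635, and Tcte1 at 6.86, 304 and 85.7 against 759, 422 and 322, so that in both the ENMO value was the outlying one. Inpp4b, a lipid phosphatase, stood at 256, 55.1 and 7.31 against 297, 483 and 491, with ENMO close to NMO-IgG only. Stk26, a kinase, stood at 95.2, 130 and 95.3 against 352, 656 and 4203.

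**Figure D4:**
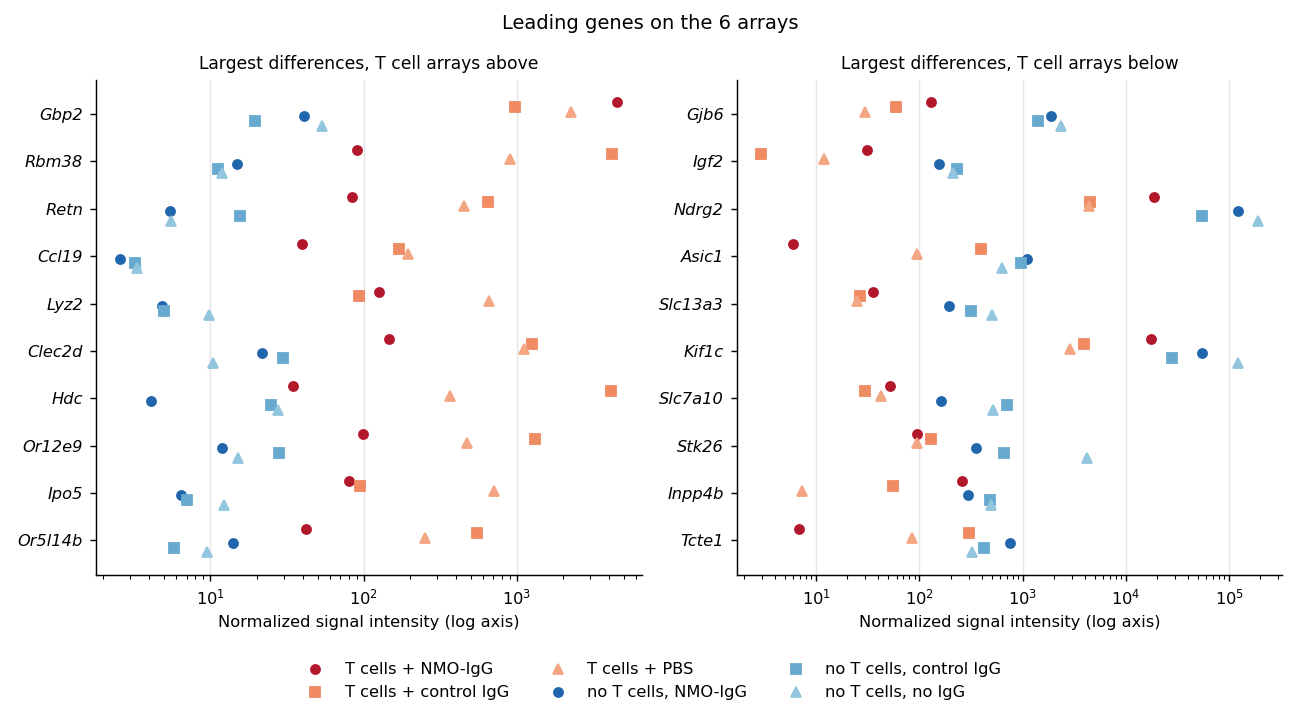
NSI (log axis) on each of the 6 arrays for the 10 genes with the largest differences upward (left) and downward (right) among those whose groups did not overlap, 1 point per array. Gbp2 runs from 963 to 4470 with T cells and from 19.7 to 53.4 without, and Gjb6 from 29.9 to 129 with T cells and from 1410 to 2362 without.

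Arrays matched for antibody gave the T cell difference 3 times, each between 1 array and 1 array, which leaves no replicate. For Gbp2 it was 6.78 with NMO-IgG, 5.61 with control IgG and 5.40 between EAEcoP and healthy. For Lyz2 it was 4.70, 4.23 and 6.08, and for Gjb6 -3.86, -4.56 and -6.31. For Rbm38 they were 2.59, 8.53 and 6.24, and for Inpp4b -0.21, -3.13 and -6.07, of which the first was within the spread between spots of a pair of arrays (0.77). Since these genes were chosen for groups that do not overlap, the sign of each pair follows from the choice. EAEcoP and healthy also differ by PBS.

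**Figure D5:**
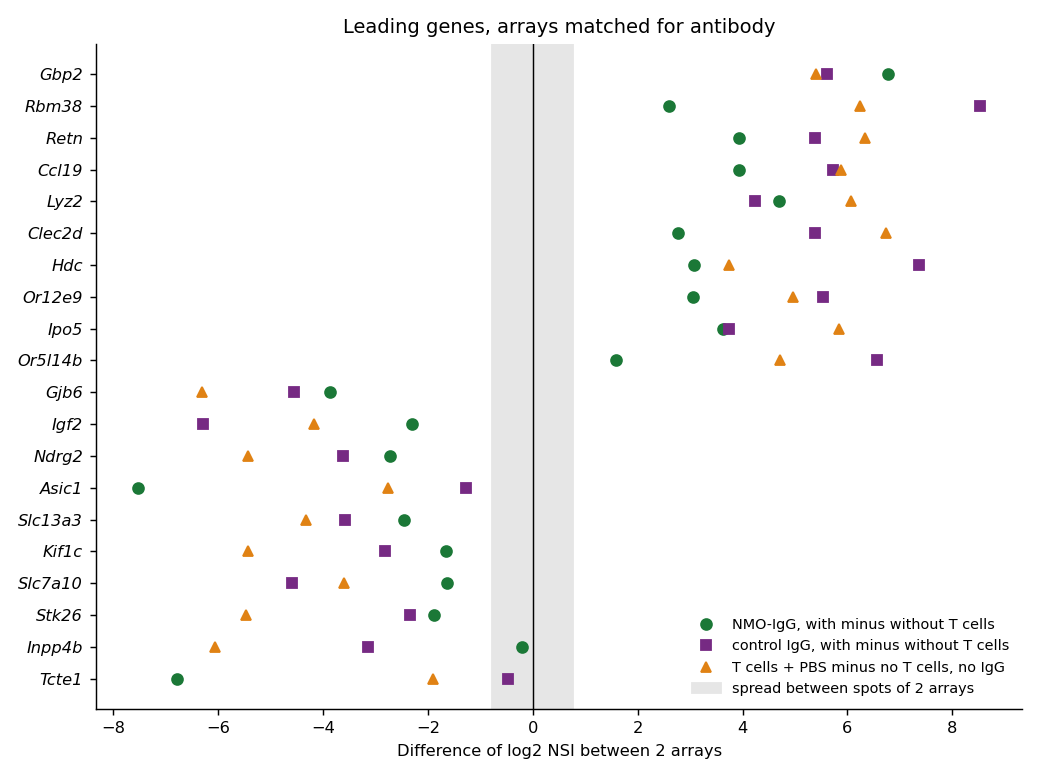
Difference of log2 NSI (horizontal axis) with T cells minus without for the 20 leading genes, 1 point for each pair of arrays that share the antibody (circles NMO-IgG, squares control IgG, triangles EAEcoP minus healthy), with the spread between spots of a pair of arrays (0.77) in grey. Of the 60 points, those of Inpp4b with NMO-IgG (-0.21) and of Tcte1 with control IgG (-0.47) lie within the grey band.

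The comparison was repeated without ENMO, leaving the T cells that were not combined with NMO-IgG. EAEcoI and EAEcoP were set against the same 3 arrays, so that both comparisons share the arrays without T cells. Limma then called 179 of 24960 targets (0.717%), 172 of them higher with T cells (0.689%) and 7 lower (0.028%), and 4387 had an unadjusted p under 0.05 (17.6%). When a further array was left out, whichever of the 5 it was, limma called 0 targets. Of the 179, 125 were not well above background on any array without T cells and 65 carried a symbol. With ENMO added back, all 3 T cell arrays were above for 150 of the targets called higher and below for 7 of the 7 called lower. Both T cell arrays were above all others for 4765 targets (19.1%) and below for 4401 (17.6%), of which 1506 and 3117 were detected on all 6 arrays. Whether called or not, 2706 of the 4765 were also above and 1745 of the 4401 also below with ENMO added back.

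The calls depended on the processing, with 5 targets called after normexp and 0 without background correction or with array weights. Of the 15 entries named from this comparison, 1 passed with normexp and 0 without background correction. Gbp2 rose by 5.40 ± 0.69 (2 against 3 arrays, limma adjusted p = 0.0368), Ccl19 by 5.92 ± 0.53 (limma adjusted p = 0.0366) and Lyz2 by 5.33 ± 0.87 (limma adjusted p = 0.0494). Psmb9 rose by 3.51 ± 0.55 (limma adjusted p = 0.0457). Among the genes called higher, those with the largest differences were Rbm38 at 7.26, Gpnmb at 7.18, Retn at 6.12, Chial1 at 6.0 and Clec2d at 5.96. All of these but Clec2d were not well above background on any array without T cells, so that their folds are bounds. Rbm38 was at least 154-fold higher, Gpnmb 67.3-fold, Retn 69.6-fold and Chial1 39.0-fold. The same holds for Ccl19, at least 33.8-fold higher, and Lyz2, at least 37.0-fold. The chitinase-like gene Chial1 had 9.33 in ENMO, 146 in EAEcoI and 572 in EAEcoP, against 1.88 to 13.2. In both Gpnmb and Chial1 the ENMO value lay near those without T cells, and both were well above background only in EAEcoI and EAEcoP. Glul rose by 5.27 ± 0.79 (limma adjusted p = 0.0428), and Parp14, an interferon-induced ADP-ribosyltransferase, by 5.25 ± 0.60 (limma adjusted p = 0.0368), with 1.79 in ENMO beside 49.3 and 118 in the EAE arrays. Both genes were well above background only in EAEcoI and EAEcoP. Their differences are thus bounds, at least 35.4-fold for Glul and at least 14.1-fold for Parp14.

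Of the 7 targets called lower 5 carried a symbol, and all 5 were also below in ENMO. Gjb6 fell by 5.44 ± 0.60 on the log2 scale (limma adjusted p = 0.0368), or 43.5-fold. Ndrg2 fell by 4.61 ± 0.67 (limma adjusted p = 0.0411) and Igf2 fell by 5.05 ± 0.71 (limma adjusted p = 0.0397). Hmgcs1, at the entry to cholesterol synthesis, fell by 3.39 ± 0.56 (limma adjusted p = 0.0495). Mboat2, a lysophospholipid acyltransferase, stood at 21.2 in ENMO, 4.62 in EAEcoI and 3.11 in EAEcoP against 50.5, 63.6 and 32.6. It was not well above background in either EAE array, and was at least 10.6-fold lower there (limma adjusted p = 0.0488). None of the 23 MHC class I and peptide loading genes of the list passed this threshold, the closest being RT1-CE12 with a difference of 4.24 ± 0.81 (limma adjusted p = 0.0684). RT1-T24-4, a class I gene outside the list that was singled out after its values were seen, was called higher at 4.40 ± 0.72 (limma adjusted p = 0.0494), and the array design names this target RT1-T24-1, a name that the list holds.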

How the data were processed

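RNA of each condition was hybridised to 1 Agilent rat array with a single dye (6 arrays). The authors deposited, per the file headers, the intensity of each of 45018 spots as the software Feature Extraction 10.1.1.1 gave it, background-subtracted and detrended but not normalized between arrays, and a second table with 1 intensity per target. The spot tables were used here, and the table per target as an alternative. Control spots and spots marked as outliers were dropped, log2 intensities of the 43379 remaining spots were averaged over the spots of each of 41012 probes and quantile-normalized, and each target was represented by its brightest probe. Targets that cleared background on 1 or more arrays entered the test, which was limma 3.58.1 (R 4.3.3) with Benjamini-Hochberg adjustment over all targets tested, and a threshold of 0.05. The 3 T cell arrays were compared with the 3 others, and again without ENMO. The script was tested on simulated data. The number of arrays limits the precision. For the 263 probes with 10 spots the pooled SD between spots was 0.544 (log2), or 0.769 for a difference between a pair of arrays, which covers neither animals nor amplification. Symbols came from RefSeq accessions and names of the assembly GRCr8, and 19354 targets had none.

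Where no array of a group cleared background, a fold is a bound against the lowest signal well above background on each array. The named genes were, in each direction, the 10 with a symbol and the largest difference among targets whose groups did not overlap and that were detected on every array of the higher group, up to 10 with the largest difference past limma without ENMO, and members of 28 gene lists (590 genes, of which 535 were matched), each by its brightest target. The members and lists were chosen with earlier results of these data known. Alternatives were other scaling, background correction, outlier handling, probe summary and filters, the deposited values per target, a gap between groups above the spread between spots, slide or antibody as a block, a variance trend, array weights and leaving out each array. Some genes are not reported here.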

Additional observations from a re-analysis of the deposited data

Results flagged for a closer look

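For 10 gene lists, among those with at least 10 genes tested and medians beyond 0.1 on the log2 scale in each pair of arrays, the median difference with T cells, taken between arrays of the same antibody, ran one way for 1 antibody and the other way for both others. Each is a difference between 2 single arrays, and the difference between antibodies was not tested. Between the control IgG arrays the median was -0.17 for MHC class II (0.86 with NMO-IgG and 1.79 between EAEcoP and healthy), -0.13 for the constitutive proteasome (0.67 and 0.71), -0.13 for antiviral interferon-induced genes (0.35 and 0.40), -0.34 for oligodendrocytes and myelin (0.17 and 0.39), -0.29 for neurons (0.14 and 0.16) and 0.16 for co-stimulation and effectors (-0.38 and -0.79). The reference genes gave -0.33 there as well, against 0.36 and 0.50. Between EAEcoP and healthy the median was -0.11 for T cell genes (0.84 with NMO-IgG and 0.42 with control IgG) and -0.45 for proliferation genes (0.48 and 0.36). Between the NMO-IgG arrays it was 0.19 for immediate early genes (-0.21 with control IgG and -0.28 between EAEcoP and healthy).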

How the results depend on the processing

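With 6 arrays limma called 0 targets in every alternative that kept all arrays. Leaving out 1 array gave 0 to 179 calls, the 179 without ENMO and 3 without EAEcoI. Leaving out 1 array moved the count above from 3503 to 4765 and the count below from 2224 to 4401. Fewer arrays overlap less by construction. Without ENMO the 179 calls became 72 with scaling to the 75th percentile, 5 with normexp, 0 without background correction, 115 with the mean over probes, 111 with the deposited values per target, 16 among targets detected on all arrays, 101 without a filter and 0 with array weights, and 0 to 0 when a further array was left out. The cause was not tested. With slide as a block there were 194 calls. With antibody, which the titles share between the groups, as a block there were 0 calls with 6 arrays and 142 without ENMO. Among targets detected on all arrays 898 were above and 1153 below, and 1506 were above without ENMO. Without a filter 7052 were below without ENMO. With a gap above the spread between spots 637 were above and 131 below, and 1889 and 1008 without ENMO. With a further array left out and no such gap required, the counts without ENMO ran from 5638 to 8917 above and from 5479 to 9738 below. The 15 entries called without ENMO kept theirs in each alternative that gave a value, and 0 to 14 of them were called.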

Other observations

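Olfactory receptor genes, singled out after their values were seen because Or12e9 and Or5l14b were among the leading genes, numbered 775 of the tested targets. Of these, 50 were above on every T cell array (6.45%) and 72 below (9.29%), beside 9.75% and 7.04% of the other targets with a symbol. Limma without ENMO called 6 of them higher (0.774%, beside 0.689% of all targets) and 0 lower (beside 0.028%), which is near the background. On the arrays without T cells 124 were not well above background on any, and 21 of the 50 above came from these.

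Genes outside the named ones and the lists that limma called higher without ENMO included, chosen here after their values were seen, the neuropeptide Vip, the growth factor Fgf2, the hyaluronan synthase Has1, the cytokine subunit Il23a and the receptor Plxnc1. None of these was well above background on any array without T cells. For Has1 the ENMO value of 5.42 lay within the range without T cells (5.14 to 8.65).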
